A study of Homo sapiens with 12 samples.

Results

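The transcriptional response to the aromatase inhibitor anastrozole given alone was measured by RNA-seq in T47D cells, a human luminal breast cancer line that expresses the estrogen and progesterone receptors. The comparison takes the 3 samples labelled anastrozole (replicates a, b and c) against the 3 labelled vehicle, 6 of the 12 samples of the series, and all 25370 gene symbols of the deposited count table. After 4238 symbols with no read in any of the 12 samples were set aside, 21132 genes were tested. The wider study set the drug's effect on gene expression beside that of 17β-estradiol (E2), and its other 6 samples received E2 or both compounds.

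Vehicle samples received neither compound, anastrozole samples received 10 nM anastrozole with no added E2, and the E2 samples used for the direct comparison at the end received 0.1 nM E2. All groups shared the same preparation, which was 48 h in medium with 5% charcoal-stripped serum, a treatment that depletes steroids, and then 24 h without serum. The labels state 12 h of treatment, whereas the study's methods state a full day, so the exposure is known only to lie at one of these values. All samples are 1 cell line in culture, and the labels do not say whether replicates were separate cultures, so p-values measure the spread between these samples, which may be technical. In bulk RNA, fewer cells of a kind and less RNA per cell cannot be told apart.

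Anastrozole occupies the active site of aromatase (CYP19A1), the enzyme that turns androgens into estrogens, and it is used against estrogen-receptor-positive breast cancer. Luminal breast cancer cells answer estrogen through the receptor ESR1, which binds DNA and raises genes such as PGR and GREB1. Other programmes these cells keep are the interferon response, run by STAT and IRF factors, the hypoxia response, run by HIF, and lipid synthesis, run by the SREBP factors.

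The label of the cells was checked against marker genes. Values are read counts scaled to library size with TMM factors (CPM), given for replicates a, b and c or as mean ± SD (n = 3 per group). The summed level of 10 luminal markers was 11624.5 to 11825.5 CPM in vehicle and 10697.4 to 11540.0 CPM in anastrozole samples, with KRT18 at 1196 ± 18.0 and 1161 ± 28.9 CPM. Of the markers of other cells, KRT5 did not exceed 0.0873 CPM in any of the 6 samples, COL1A2 was at 0 in all 6, and PTPRC had reads in vehicle c alone (0.233 CPM). Others had reads: the basal list of 8 summed to 20.6 to 23.9 CPM with vehicle and 22.9 to 26.8 CPM with anastrozole, and the fibroblast and adipocyte list of 11 to 103.7 to 110.6 CPM and 96.6 to 106 CPM, mostly from COL1A1 (94.0 ± 2.17 and 88.9 ± 4.18 CPM). No member of either list was called. The summed level of the immune and endothelial list was 8.44 to 12.0 CPM with vehicle and 13.3 to 14.8 CPM with anastrozole, and 1 of its 11 tested members, the lysosomal protein gene CD68, was called higher (3.70 ± 0.622 against 6.0026 ± 0.986 CPM), a call lost without anastrozole a or vehicle b. Its part in the results was not tested. Reads on genes numbered 9914253 to 13930525 per sample, and 17856 to 18238 genes had at least 1 read.

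The drug's own target gave no reads. CYP19A1 (chr15:51500254-51630798, GRCh37) was at 0 in all 6 samples, which allows up to 0.303 CPM in the shallowest sample at 3 reads. A 0 in this table is not proof that the RNA is absent, since the housekeeping genes RPL21 and EIF4A1 were also at 0 reads in these 6 samples. ESR1 (chr6:151977826-152450754) had 179.6, 188 and 179 CPM with vehicle and 179.6, 187 and 172 CPM with anastrozole, overlapping ranges with a log2 difference of -0.02 ± 0.05 (SE, adjusted p = 0.89).

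Anastrozole changed 776 of 21132 genes (3.67%) at an adjusted p under 0.05 in the quasi-likelihood test of edgeR, with p-values adjusted by Benjamini-Hochberg, which is what "called" means throughout. Of these, 296 were raised (1.4%) and 480 were lowered (2.27%). The changes were small: the median fold change was 1.17 for raised and 0.853 for lowered genes, and 37 raised and 18 lowered genes reached a fold of 1.5. All 3 anastrozole samples lay above all 3 vehicle samples for 1823 genes (8.63%) and below for 1917 genes (9.07%). The count of calls rested on the libraries and the test used: it was 246 without anastrozole a, 301 without anastrozole b, 1651 without anastrozole c, 287 without vehicle a and 191 without vehicle c, and DESeq2's Wald test called 238 genes and limma-voom 15.

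Among called genes averaging 3 log2 CPM or more whose groups did not overlap, the 12 largest falls were led by antiviral genes. They were IFIT1, MX1, IFI6, OAS2, ISG15, OAS1, IFI27, DDX60L, MARCH2, HELZ2, IFITM1 and ZNF812. Apart from MARCH2, which encodes a membrane ubiquitin ligase, and the zinc finger gene ZNF812, these are interferon-inducible. MARCH2 went from 9.30, 9.73 and 9.65 to 5.84, 6.06 and 7.24 CPM and ZNF812 from 13.4, 12.8 and 14.3 to 8.94, 9.70 and 9.69 CPM, and neither pair of ranges overlapped. The MARCH2 call was lost without anastrozole a and the ZNF812 call without vehicle c.

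The 12 largest rises were more mixed: TNFAIP3, ARHGAP15, EGLN3, C9orf72, ANGPTL4, TXNIP, CA11, SH3PXD2A, LEPR, NDNF, CCDC110 and FAM13A. TNFAIP3 (chr6:138188351-138204451), which encodes the NF-κB inhibitor A20, had 7.52, 7.38 and 6.85 CPM with vehicle and 10.2, 13.5 and 10.8 CPM with anastrozole. All 3 treated samples were higher, with a fold change of 1.57 (log2 0.66 ± 0.13, adjusted p = 0.00021). C9orf72, a gene linked to autophagy and endosomal traffic, went from 13.993, 13.6 and 12.2 to 19.8, 19.2 and 19.1 CPM (fold change 1.46, adjusted p = 0.0001). The leptin receptor gene LEPR went from 11.1, 12.0 and 11.2 to 16.6, 15.0 and 15.8 CPM, though it shares exons with LEPROT on the same strand, and its call was lost without anastrozole a. Calls were also lost for SH3PXD2A without anastrozole b or vehicle c, for NDNF without anastrozole a or b or vehicle a or c, and for CCDC110 without anastrozole a or c or vehicle a or c.

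A property of the libraries moved with the contrast. Across 10196 genes of at least 3 log2 CPM with a known exon sequence, the log2 difference fell with the GC content of the exons (Spearman's rho = -0.53, a description across genes that share libraries). Taken one at a time against the vehicle mean, the rho was -0.63 for anastrozole a, -0.49 for anastrozole b and -0.08 for anastrozole c, and replicates of 1 group differed by as much, with -0.58 between anastrozole a and c. When genes were cut into 5 equal bins of GC, 106 were raised and 13 lowered in the lowest bin, whereas in the highest 6 were raised and 270 lowered. With a GC trend fitted to each sample and entered as an offset, 325 genes were raised (1.54%) and 321 lowered (1.52%), and 191 and 180 of these were also called the same way without the offset. Counts with the GC offset therefore stand beside the gene groups below. Exon GC was known for 4 of 22 expressed tRNA synthetases, 1 of 18 histones and 7 of 9 HIF subunits and regulators, the other symbols having no match in the annotation. This check is therefore void for those lists as a whole, and an offset value there stands only for the single gene. It was known for 61 of 76 oxidative phosphorylation genes. In other lists too, members without a match, among them ERO1L, SLC9A3R1, PVRL1 and PVRL2, were not tested by the offset.

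**Figure D1:**
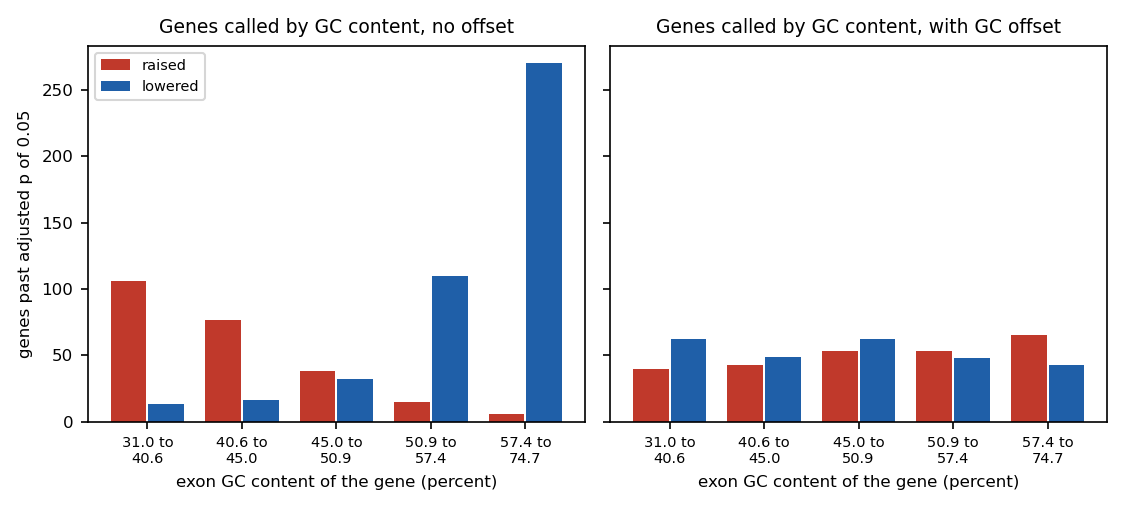
Number of genes called raised (red) and lowered (blue) by anastrozole in each of 5 bins of exon GC content (x axis, percent), without the GC offset on the left and with it on the right. Without the offset, lowered genes concentrate at high GC (270 in the top bin) and raised genes at low GC (106 in the bottom bin); with it, the top bin holds 65 raised and 43 lowered genes.

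Across 36 functional gene lists, the response was uneven. The lists and their members were chosen with earlier results of these data known, so their order by share is a description and not a test. The lists with the largest shares of lowered members were the interferon-stimulated effectors (29 of 60) and the enzymes of cholesterol synthesis (10 of 22). The largest shares of raised members were in the hypoxia-inducible genes (19 of 38), the arrestin-domain and FOXO-linked genes (6 of 25) and the autophagy genes (6 of 28). Over all genes tested, 1.4% were raised and 2.27% lowered, and the median log2 difference of genes averaging at least 1 log2 CPM was 0.00. Those shares are a low yardstick for lists of mostly expressed genes. Only 54 called genes averaged under 3 log2 CPM, and 11041 genes averaged at least that. In the 5 GC bins, made of such genes, 0.29% to 5.2% were raised and 0.64% to 13.2% lowered. List counts given without a share are to be read against these. Lists of 62 replication-dependent histones, 37 growth factor and PI3K-AKT-mTOR genes, 12 HIF subunits and regulators and 8 aryl hydrocarbon receptor genes held no called member in edgeR's quasi-likelihood test, its exact test, DESeq2's Wald test or limma-voom. At an unadjusted p under 0.05 they held 5, 8, 2 and 2 members, in that order, against 3198 of all 21132 genes (1399 higher and 1799 lower). With the GC offset 1 of the 37 was lowered, and 1 HIF subunit gene, EPAS1, was raised. The HIF prolyl hydroxylase gene EGLN3, which was called raised, is counted among the HIF target genes and not among those 12.

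**Figure D2:**
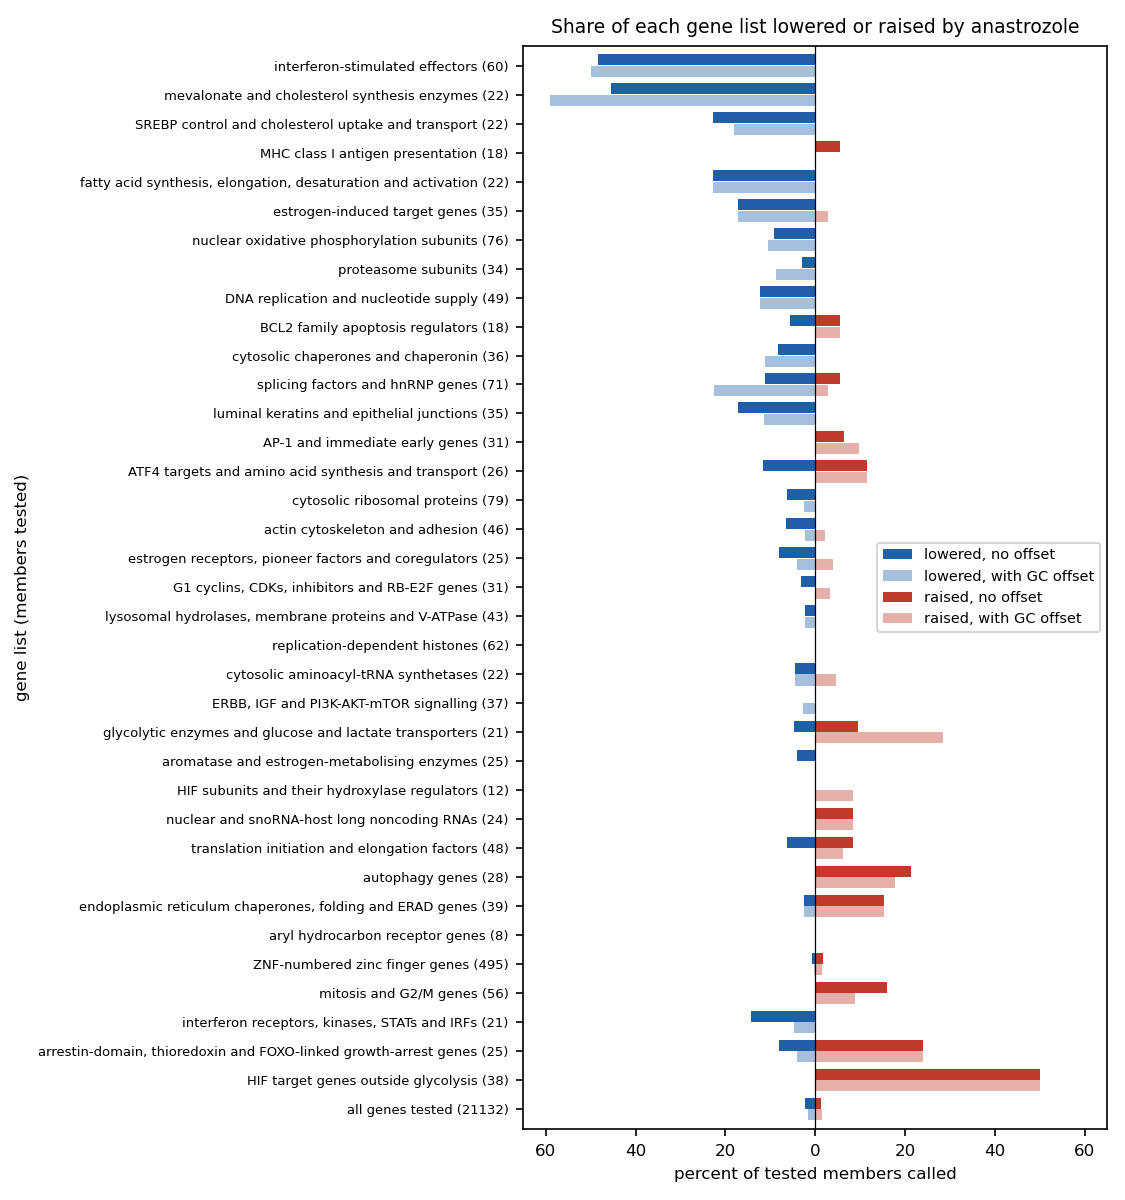
Percent of the tested members of each of 36 gene lists, and of all 21132 genes, called lowered (blue, left) or raised (red, right) by anastrozole; dark bars are without and pale bars with the GC offset, and lists are ordered by their median log2 difference. Interferon-stimulated effectors and cholesterol enzymes extend farthest to the left and HIF target genes farthest to the right, with or without the offset.

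Interferon-stimulated effectors held the largest number of lowered genes among the 36 lists. These are the antiviral proteins and RNA sensors that interferon switches on through STAT and IRF factors. The promoters of many hold the interferon-stimulated response element (ISRE), searched here as GAAANNGAAA on both strands of the 250 bases before the gene start. Of 48 members with a RefSeq promoter, 28 held a match, 16 of the 25 called and 12 of the 23 uncalled, against 3.46% of 13712 tested genes. The 160 bases before the start are shown for 6 called members to let the elements be read (GRCh38.p14, gene strand, 5′ to 3′, matches in capitals).
ISG15 (chr1:1013337-1013496, plus strand): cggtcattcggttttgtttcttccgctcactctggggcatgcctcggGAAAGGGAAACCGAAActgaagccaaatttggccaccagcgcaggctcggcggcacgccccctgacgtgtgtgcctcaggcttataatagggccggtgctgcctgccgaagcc
IFI6 (chr1:27672193-27672352, minus strand): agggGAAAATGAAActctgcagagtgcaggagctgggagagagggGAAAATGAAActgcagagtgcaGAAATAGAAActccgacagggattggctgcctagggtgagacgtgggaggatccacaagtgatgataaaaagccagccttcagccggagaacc
IFIT1 (chr10:89392463-89392622, plus strand): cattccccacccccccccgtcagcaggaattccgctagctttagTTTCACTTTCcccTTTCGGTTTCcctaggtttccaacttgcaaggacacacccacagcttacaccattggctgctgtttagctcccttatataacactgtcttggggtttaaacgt
OAS3 (chr12:112938314-112938473, plus strand): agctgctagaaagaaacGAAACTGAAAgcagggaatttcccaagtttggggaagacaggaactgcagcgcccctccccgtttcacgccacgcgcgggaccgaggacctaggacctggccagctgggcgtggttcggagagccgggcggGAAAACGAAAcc
IFITM1 (chr11:313880-314039, plus strand): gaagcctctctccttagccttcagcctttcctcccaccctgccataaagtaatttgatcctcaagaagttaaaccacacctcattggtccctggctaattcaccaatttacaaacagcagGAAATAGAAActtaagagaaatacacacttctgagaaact
BST2 (chr19:17405631-17405790, minus strand): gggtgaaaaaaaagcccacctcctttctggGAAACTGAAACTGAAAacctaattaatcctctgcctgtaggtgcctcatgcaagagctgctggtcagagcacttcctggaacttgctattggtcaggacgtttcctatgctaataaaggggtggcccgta

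IFI6 has 3 separate matches and ISG15 a pair that overlaps, as does BST2. In IFIT1 both matches read on the opposite strand, so the capitals are the reverse complement. A match is a description of letters and not a measured binding site.

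Of the 60 effectors tested, 29 were lowered and 0 raised by edgeR's quasi-likelihood test. At an unadjusted p under 0.05, 37 were lower and 1 higher, against 1799 lower and 1399 higher of all 21132 genes. The median log2 difference of the 49 members averaging at least 1 log2 CPM was -0.30, against 0.00 over all genes, and 47 of them were below 0. All 29 lowered members had 3 anastrozole samples below 3 vehicle samples, with fold changes from 0.354 to 0.905. The median of the list relative to the vehicle mean was -0.30, -0.27 and -0.29 on the log2 scale in anastrozole a, b and c, so the 3 libraries had like values.

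MX1 (chr21:42791947-42841998), a GTPase that blocks virus replication, had 136, 143 and 138 CPM with vehicle and 76.7, 77.9 and 83.9 CPM with anastrozole. The groups were far apart, with a fold change of 0.572 (log2 -0.81 ± 0.05, adjusted p = 1.7e-47). IFIT1 (chr10:91152303-91166244), which binds foreign capped RNA, went from 62.9, 58.2 and 57.3 to 35.8, 31.9 and 31.3 CPM (fold change 0.557, adjusted p = 5e-30). IFI6 (chr1:27992575-27998723), a small antiviral membrane protein, went from 152, 134 and 140.2 to 76.5, 93.5 and 87.6 CPM (fold change 0.602, adjusted p = 6.6e-40). In each of these genes the highest treated sample was below the lowest vehicle sample.

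OAS1, OAS2 and OAS3, whose products make the oligoadenylate that activates RNase L, were all lowered. OAS1 went from 18.0 ± 1.27 to 11.2 ± 0.557 CPM, OAS2 from 48.8 ± 1.62 to 29.5 ± 2.67 CPM and OAS3 from 224 ± 8.14 to 161 ± 8.66 CPM (adjusted p = 6.6e-07, 2.6e-19 and 9.9e-21). ISG15, a ubiquitin-like modifier, had 17.2, 14.4 and 17.5 CPM with vehicle and 8.87, 11.6 and 9.69 CPM with anastrozole. The membrane protein IFITM1, which hinders virus entry, fell from 32.3 ± 2.17 to 22.5 ± 1.61 CPM, and the tetherin gene BST2 from 279 ± 10.9 to 235 ± 7.4968 CPM. IFITM genes are near-copies of each other, so their reads may be shared. XAF1 had the lowest fold change of the list, 0.354, at a low level (2.10, 2.05 and 2.64 against 0.649, 0.505 and 1.22 CPM).

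The cytosolic RNA sensors DDX58 (RIG-I), IFIH1 (MDA5) and DHX58 (LGP2) were lowered to fold changes of 0.827, 0.803 and 0.802. So were the ADP-ribosyltransferases PARP9, PARP10 and PARP14 with the partner ligase DTX3L (0.804, 0.805, 0.83 and 0.756). The weakest called member was the RNA-editing enzyme gene ADAR, at 599 ± 14.7 and 542 ± 12.0 CPM (fold change 0.905, adjusted p = 0.026). The call of DDX58 was lost without vehicle c, that of IFIH1 in 5 of the 6 fits with a library left out, and that of ADAR without anastrozole b, vehicle b or vehicle c. DHX58 lost its call without anastrozole a or vehicle c.

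Of the 31 members not called, 21 averaged at least 1 log2 CPM, and 19 of these lay below 0. IFI44 had a log2 difference of -0.56 (adjusted p = 0.059), IFIT3 -0.36 and the deISGylase gene USP18 -0.31. IFIT2 had -0.03 and MX2 -0.05, and the lysosomal thiol reductase gene IFI30, with 25.2, 20.5 and 23.1 CPM against 25.3, 26.9 and 26.2 CPM, had 0.19. The GC offset gave 30 lowered members, 27 of them also called without it, and the count ran from 23 to 28 when any one library was left out. DESeq2's Wald test called 18 lowered members and limma-voom 6.

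**Figure D3:**
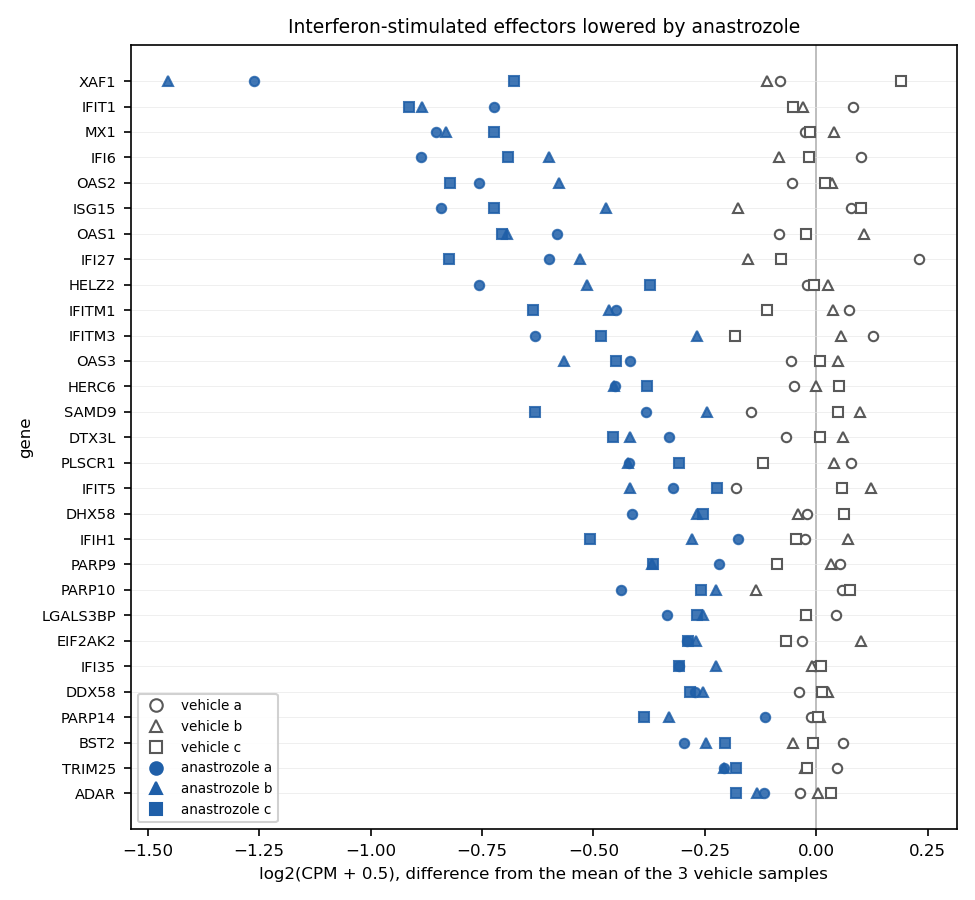
Each row is one of the 29 lowered interferon-stimulated effectors, and each symbol 1 sample: log2(CPM + 0.5) minus the mean of the 3 vehicle samples, open for vehicle and filled for anastrozole, with circle, triangle and square for replicates a, b and c. Every filled symbol lies left of every open symbol of the same gene.

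Upstream of these effectors, ligand reads were almost absent. Of 22 interferon ligand genes in the table, 17 had no read in the 6 samples and the other 5 had at most 3 reads in a sample. Of 21 receptors, kinases, STATs and IRFs, 3 were lowered and 0 raised, with a median log2 difference of 0.08. Of the 17 members of at least 1 log2 CPM that were not called, 4 had all 3 treated samples above all 3 vehicle samples and 1 had them below. The lowered count was 1 without anastrozole a or vehicle c.

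IRF7 went from 19.7, 18.7 and 21.5 to 12.4, 13.5 and 17.5 CPM (adjusted p = 0.0011) and IRF9 from 58.5, 56.7 and 55.2 to 48.0, 52.4 and 47.7 CPM (adjusted p = 0.048). Neither was called with the GC offset, under which 1 member of the list was lowered, IRF7 was not called without anastrozole a or vehicle c, and IRF9 was not called without any one of the 6 libraries. STAT2 (115 ± 2.71 and 113 ± 6.60 CPM), JAK1 (350.0 ± 12.1 and 369 ± 9.63 CPM) and the receptor gene IFNAR1 (113 ± 1.80 and 117 ± 5.25 CPM) were not called. MHC class I genes, which interferon also controls, had another count: of 18, 0 were lowered and 1, B2M, was raised (526 ± 6.39 to 576 ± 28.7 CPM, adjusted p = 0.046). At an unadjusted p under 0.05, 0 were lower as well, against 1799 of all 21132 genes. Of 17 expressed members, 13 were below 0, with a median log2 difference of -0.08 (-0.04 with the GC offset). B2M was not called with the GC offset or the replicate block, nor without anastrozole a or b or any 1 vehicle library. HLA genes resemble each other closely, so their reads may be shared.

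Hypoxia-inducible genes had the largest share of raised members, with or without the GC offset. Under low oxygen the HIF factors escape hydroxylation and bind a short core element in the genes they raise. Among 38 HIF target genes outside glycolysis, 19 were raised and 0 lowered by edgeR's quasi-likelihood test, with a median log2 difference of 0.17 over 37 expressed members. All 19 had 3 treated samples above 3 vehicle samples, with fold changes from 1.11 to 1.93. At an unadjusted p under 0.05, 25 were higher and 1 lower, against 1399 higher and 1799 lower of all 21132 genes. The list's median relative to the vehicle mean was 0.18, 0.16 and 0.18 on the log2 scale in anastrozole a, b and c.

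The HIF core element, searched as ACGTG or GCGTG on both strands, is so short that 58.9% of all tested genes with a promoter held it, against 26 of 29 members. Windows of 160 bases are shown for the carbonic anhydrase gene CA9 and the collagen prolyl hydroxylase gene P4HA1, with the core in capitals (GRCh38.p14, gene strand).
CA9 (chr9:35673768-35673927, plus strand): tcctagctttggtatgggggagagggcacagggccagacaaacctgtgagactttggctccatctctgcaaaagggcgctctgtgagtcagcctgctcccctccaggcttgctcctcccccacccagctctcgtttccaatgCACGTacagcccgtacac
P4HA1 (chr10:73096867-73097026, minus strand): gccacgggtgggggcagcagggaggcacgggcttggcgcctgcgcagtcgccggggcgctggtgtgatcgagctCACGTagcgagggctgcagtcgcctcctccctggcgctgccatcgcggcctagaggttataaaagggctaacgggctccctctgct

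In CA9 the match lies 18 to 14 bases before the start and in P4HA1 86 to 82 bases before it. In both windows it reads on the opposite strand.

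VEGFA (chr6:43737921-43754224), the main angiogenic growth factor, had 191, 183 and 192 CPM with vehicle and 231, 250.02 and 255 CPM with anastrozole. The groups did not overlap (fold change 1.30, log2 0.38 ± 0.05, adjusted p = 4.4e-13). ERO1L, an oxidase of the endoplasmic reticulum, went from 307, 336 and 331 to 437, 421 and 402 CPM (fold change 1.30, adjusted p = 2.2e-14). ANGPTL4 (chr19:8428173-8439254), which inhibits lipoprotein lipase, went from 53.3, 48.1 and 48.2 to 64.1, 75.2 and 72.7 CPM (fold change 1.41, adjusted p = 2.8e-12). These 3 genes were called in every fit with a library left out.

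CA9 had the highest fold change of the list, 1.93, at a low level (2.51, 2.36 and 1.94 against 4.26, 5.46 and 3.58 CPM), and its exons overlap those of ARHGEF39 on the other strand. Its call was lost without anastrozole b. The collagen cross-linking enzyme gene LOX went from 4.93, 3.35 and 3.66 to 6.35, 7.48 and 6.37 CPM. EGLN3, a HIF prolyl hydroxylase that is itself a HIF target, had 9.14, 8.06 and 7.62 CPM with vehicle and 11.8, 11.6 and 13.6 CPM with anastrozole (fold change 1.49, adjusted p = 0.00081). The collagen hydroxylase P4HA1 and the histone demethylase KDM3A had fold changes of 1.2502 and 1.21, and the mitophagy receptors BNIP3 and BNIP3L of 1.11 and 1.13. The calls of BNIP3 and BNIP3L were each lost in 4 of the 6 fits with a library left out.

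**Figure D4:**
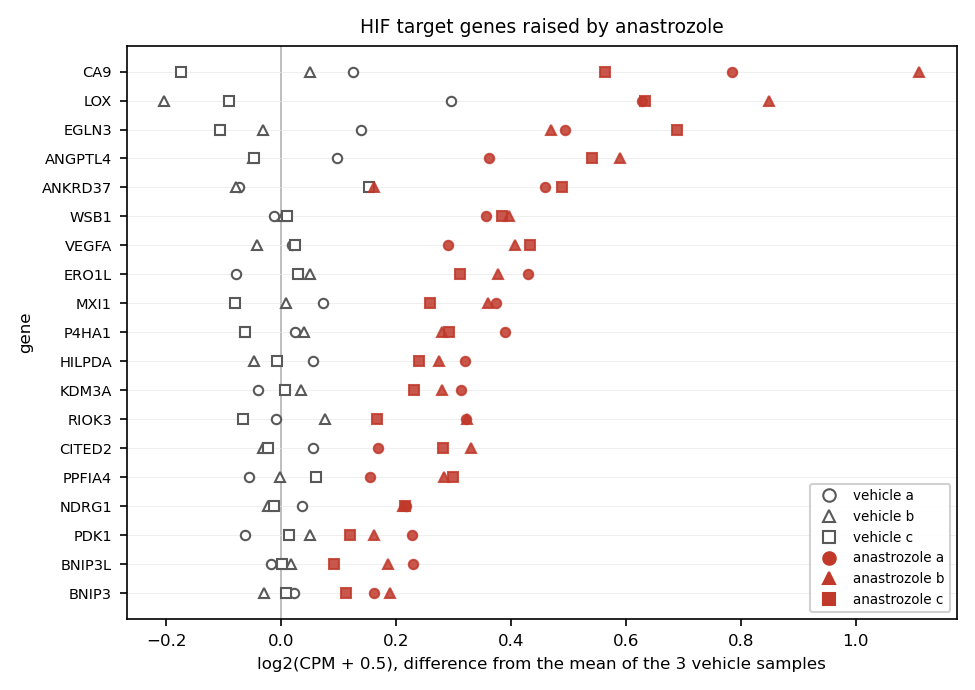
Each row is one of the 19 raised HIF target genes, and each symbol 1 sample: log2(CPM + 0.5) minus the mean of the 3 vehicle samples, open for vehicle and filled for anastrozole, with circle, triangle and square for replicates a, b and c. Every filled symbol lies right of every open symbol of the same gene; CA9, LOX and EGLN3 lie farthest right.

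Of the 19 members not called, 13 expressed ones were above 0 and 5 below, from -0.11 for KDM4B to 0.37 for RORA. Known HIF targets without a call included CA12 (482 ± 12.7 and 464 ± 3.60 CPM), STC2 (401 ± 17.1 and 386 ± 8.40 CPM) and ADM (22.3 ± 0.881 and 22.9 ± 3.88 CPM). The GC offset gave 19 raised members, 16 of them in common, and 14 to 19 were raised when any one library was left out. DESeq2's Wald test called 14 and limma-voom 3.

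The factors themselves showed no call. HIF1A had 176, 191 and 186 CPM with vehicle and 196, 201 and 189 CPM with anastrozole (adjusted p = 0.37), and EPAS1 36.2, 39.6 and 37.9 and 45.7, 35.7 and 46.0 CPM (adjusted p = 0.19, and 0.035 with the GC offset). Of 21 glycolytic enzymes and transporters, 2 were raised, the enolase ENO2 (37.2 ± 1.96 to 46.1 ± 1.01 CPM) and the hexokinase HK2 (117 ± 2.79 to 131 ± 2.53 CPM), and 1 was lowered, PFKL (282 ± 19.6 to 253 ± 19.9 CPM). Their median log2 difference was 0.02. The glucose transporter SLC2A1 (80.4 ± 2.55 and 79.9 ± 5.82 CPM) and the lactate dehydrogenase LDHA (2093 ± 26.2 and 2082 ± 100.3 CPM), classic HIF targets as well, were not called. After the GC offset 6 glycolytic genes were raised and 0 lowered, the added ones including GAPDH (log2 0.13) and ENO1 (0.13). ENO2 was not called without vehicle a, HK2 was called only with all libraries or without anastrozole c, and PFKL was not called in 4 of the 6 fits with a library left out.

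Many genes of cholesterol synthesis were lowered. These enzymes turn acetyl-CoA into mevalonate and then sterol, and SREBF2 raises them when cells run short of cholesterol. Of 22 enzymes, 10 were lowered and 0 raised, with a median log2 difference of -0.15, and 20 were below 0. At an unadjusted p under 0.05, 16 were lower and 0 higher, against 1799 lower and 1399 higher of all 21132 genes. The lowered members had fold changes from 0.766 to 0.891, and in 9 of them the groups did not overlap, the exception being HSD17B7. The median relative to the vehicle mean was -0.12, -0.14 and -0.18 on the log2 scale in anastrozole a, b and c.

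MVD (chr16:88718343-88729569), mevalonate diphosphate decarboxylase, had 195, 177 and 186 CPM with vehicle and 130.0, 149 and 149 CPM with anastrozole. All 3 treated samples were lower (fold change 0.766, log2 -0.39 ± 0.05, adjusted p = 2.5e-12). The lanosterol synthase LSS (chr21:47608055-47648738) went from 288, 284 and 291 to 218, 218 and 241 CPM (fold change 0.785, adjusted p = 1.2e-11). FDPS (chr1:155278539-155290457), which makes farnesyl diphosphate, went from 431, 400.0 and 412 to 359, 347 and 319.8 CPM (adjusted p = 2e-07), with part of its exons under the antisense gene RUSC1-AS1. DHCR7, the final reductase, fell from 311 ± 19.6 to 260.4 ± 11.9 CPM and the squalene epoxidase SQLE from 261 ± 6.52 to 229.5 ± 3.48 CPM.

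The uncalled enzyme HMGCS1 had a log2 difference of -0.13 (adjusted p = 0.058, and 1.6e-06 with the GC offset). Under the GC offset 13 members were lowered, 9 of them in common, and TM7SF2 was not. The count was 6 without anastrozole b, without vehicle a or without vehicle c, and DESeq2's Wald test called 7 and limma-voom 1.

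**Figure D5:**
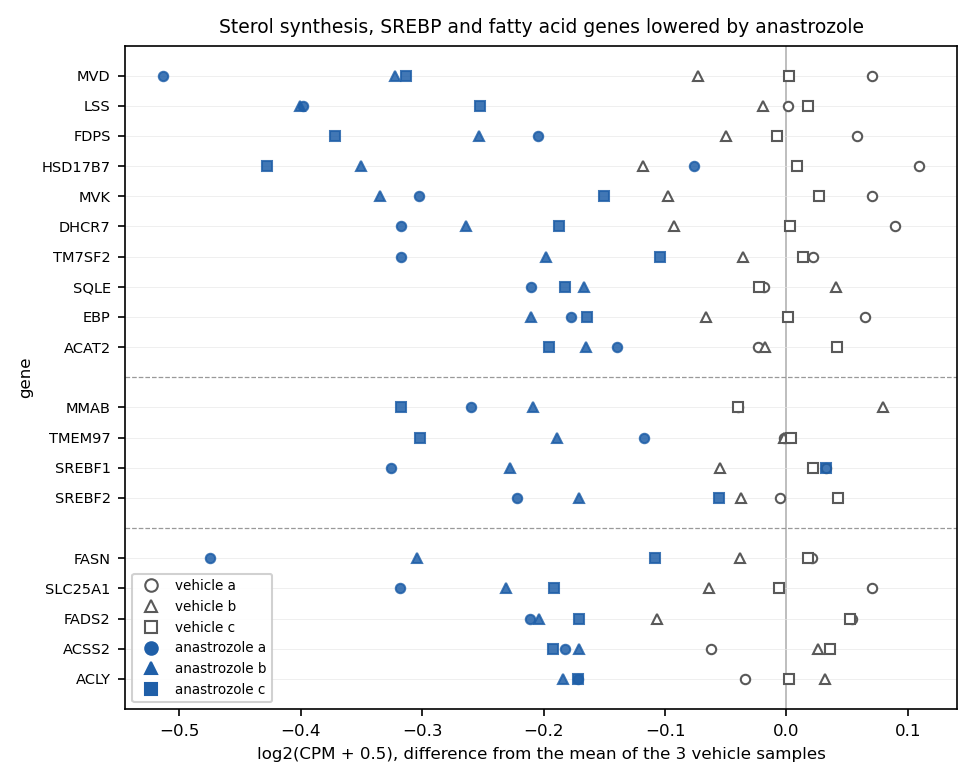
Lowered genes of cholesterol synthesis (top block), SREBP control and cholesterol uptake (middle) and fatty acid synthesis (bottom), 1 row a gene, with 4 of the 5 lowered genes of the middle block shown: log2(CPM + 0.5) of each sample minus the mean of the 3 vehicle samples, open for vehicle and filled for anastrozole, with circle, triangle and square for replicates a, b and c. Filled symbols lie left of the open ones except in HSD17B7 and SREBF1, where the groups overlap.

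In the SREBP control and cholesterol uptake list, 5 of 22 genes were lowered and 0 raised, among them MMAB, TMEM97, SREBF1 and SREBF2. The median was -0.11, and -0.06 with the GC offset. The factor genes SREBF1 (183, 172 and 182 against 143, 153 and 183 CPM) and SREBF2 (241, 235 and 249 against 207, 215 and 233 CPM) were called at adjusted p = 0.021 and 0.037, and neither with the GC offset, under which 4 of the list were lowered, 3 of them in common. Each of these 2 was also lost without anastrozole a or b or vehicle a or c, and TMEM97 in 1 of the 6 such fits. The list's count was 3 without anastrozole a, anastrozole b or vehicle a, and 2 without vehicle c.

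The sterol regulatory element, searched as TCACNCCAC, was in the promoter of 1.17% of tested genes, of 0 of 17 cholesterol enzymes and of 1 of 18 genes of SREBP control. That gene is SREBF2, whose 160 bases before the start are shown with the match in capitals (GRCh38.p14, gene strand). No match says only that these letters were not in the 250 bases searched.
SREBF2 (chr22:41832945-41833104, plus strand): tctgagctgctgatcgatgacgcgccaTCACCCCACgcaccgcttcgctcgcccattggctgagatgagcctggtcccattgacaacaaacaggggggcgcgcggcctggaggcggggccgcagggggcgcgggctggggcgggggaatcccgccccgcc

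Fatty acid synthesis showed the same count, with 5 of 22 lowered and 0 raised (median -0.08). FASN (chr17:80036214-80056170), fatty acid synthase, had 1205, 1156 and 1202 CPM with vehicle and 854, 962 and 1102 CPM with anastrozole (fold change 0.819, adjusted p = 8.7e-08), the treated samples being unequal among themselves. ACLY, which makes cytosolic acetyl-CoA, went from 764, 799.8 and 784 to 695, 689 and 695 CPM (adjusted p = 0.0022). The other 3 were the citrate carrier SLC25A1, ACSS2 and the desaturase FADS2, and the abundant desaturase SCD had 2860.3 ± 32.3 and 2636 ± 31.2 CPM (adjusted p = 0.052). Under the GC offset 5 were lowered, 3 of them the same, and the median was -0.05. The count was 3 without anastrozole a and 2 without anastrozole b or vehicle c, and with all libraries FASN was not called in 5 of the alternative analyses. These were scaling by library size alone (adjusted p = 0.089), edgeR's filterByExpr filter (0.15), the removal of genes averaging under 3 log2 CPM (0.15), DESeq2's Wald test (0.12) and limma-voom (0.15), with log2 differences of -0.28 to -0.30.

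TXNIP was the raised gene with the smallest p. Its product, an arrestin-domain protein like those of ARRDC3 and ARRDC4, binds thioredoxin and restrains glucose uptake. TXNIP (chr1:145438490-145442635) had 365, 361 and 371 CPM with vehicle and 539.9, 508 and 480.3 CPM with anastrozole, a fold change of 1.39 (log2 0.48 ± 0.04, adjusted p = 3e-25). ARRDC3 (chr5:90664448-90679134) went from 68.8, 71.2 and 66.8 to 92.1, 90.0 and 89.6 CPM (adjusted p = 6.3e-09) and ARRDC4 from 16.2, 18.0 and 19.8 to 23.3, 21.6 and 21.6 CPM (adjusted p = 0.049). ARRDC4 was not called with the GC offset and lost its call in 5 of the 6 fits with a library left out, whereas TXNIP and ARRDC3 kept theirs in each.

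In the list of 25 arrestin-domain, thioredoxin and FOXO-linked growth-arrest genes, 6 were raised and 2 lowered (median 0.14). The other raised members were the ubiquitin ligase adaptor KLHL24 (99.9 ± 4.88 to 125 ± 4.75 CPM), the polyamine acetyltransferase SAT1 (87.9 ± 4.09 to 114 ± 9.31 CPM) and the antiproliferative gene BTG2 (34.1 ± 0.397 to 42.7 ± 3.89 CPM). The lowered ones were ARRDC1 (195 ± 6.94 to 168 ± 14.4 CPM) and MLXIP, whose product drives TXNIP in response to glucose (93.9 ± 3.47 to 83.2 ± 1.39 CPM), and neither was called with the GC offset. With that offset 6 were raised, 5 of them in common, and 1, the thioredoxin gene TXN, was lowered. The raised count ran from 5 to 8 with any one library left out, and the lowered count was 0 without anastrozole a or vehicle c, 1 without anastrozole b, vehicle a or vehicle b, and 3 without anastrozole c.

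A few estrogen-induced target genes were lowered by small amounts. Of 35, 6 were lowered and 0 raised. The median log2 difference over 31 expressed genes was -0.07, and -0.01 with the GC offset. The 6 were SLC9A3R1, TFF3, ADCY9, PGR, GREB1 and CXCL12. PGR (chr11:100900355-101000544), the progesterone receptor, had 2038, 2352 and 2196 CPM with vehicle and 1952, 2025 and 2034 CPM with anastrozole (fold change 0.913, adjusted p = 0.026). GREB1 (chr2:11622467-11782914), a receptor cofactor, went from 508, 532 and 525 to 470.1, 466 and 482 CPM (fold change 0.906, adjusted p = 0.029). In both genes the 3 treated samples lay below the 3 vehicle samples by a small margin.

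TFF3, a secreted trefoil peptide, went from 134 ± 10.9 to 113 ± 8.63 CPM and the chemokine CXCL12 from 285 ± 3.12 to 258 ± 4.77 CPM. TFF1 had 2.10, 1.22 and 1.63 CPM with vehicle and 0.866, 1.31 and 0.96 CPM with anastrozole and was not called (adjusted p = 0.32), and MYC and CCND1 had log2 differences of -0.01 and -0.07. The list's count was 1 without anastrozole a, 2 without anastrozole b, 9 without anastrozole c, 3 without vehicle a or b and 1 without vehicle c. CXCL12 lost its call with the replicate block and in 5 of the 6 fits with a library left out, and TFF3 without vehicle a. PGR was lost without anastrozole a or b or vehicle b or c, and GREB1 in every such fit but the one without anastrozole c. After the GC offset 6 were lowered and 1, IGFBP4, raised. The palindromic estrogen response element, searched as GGTCANNNTGACC, was in 0 of 23 members' promoters and in 4 of all 13712.

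Of 25 estrogen receptor, pioneer factor and coregulator genes, 2 were lowered, among them the ETS factor SPDEF (253 ± 5.76 to 216 ± 18.1 CPM, adjusted p = 0.00018). SPDEF was not called with the GC offset or without anastrozole a, and with that offset 1 gene of the list was lowered and 1 raised. FOXA1 (356 ± 11.6 and 349 ± 27.6 CPM) and GATA3 (647 ± 28.1 and 673 ± 20.7 CPM) were not called. Among 25 tested genes of estrogen synthesis and metabolism, 1 was lowered without and 0 with the GC offset.

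Among cell cycle genes, the replication genes called were lowered and the mitosis genes called were raised. Of 49 DNA replication and nucleotide supply genes, 6 were lowered and 0 raised (median -0.05), among them the helicase subunits MCM2 (137, 135 and 135 against 118, 119 and 113 CPM, adjusted p = 0.0027) and MCM3 (198 ± 3.42 to 178 ± 4.92 CPM). Of 56 mitosis genes, 9 were raised and 0 lowered (median 0.07), among them HMMR (98.8, 107 and 101 against 122, 119 and 112 CPM, adjusted p = 0.0075), NUSAP1 (221 ± 3.19 to 248 ± 13.971 CPM) and TPX2 (224 ± 2.38 to 248 ± 3.52 CPM). Fold changes ran from 1.09 to 1.18 for the raised mitosis genes and from 0.862 to 0.897 for the lowered replication genes. The mitosis genes had a median exon GC of 41.1% and the replication genes 47.3%, against 48.1% over all genes. With the GC offset 5 mitosis genes were raised and 6 replication genes lowered. The median log2 differences were then 0.02 for mitosis and -0.06 for replication genes.

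Both counts depended on single libraries. Mitosis calls numbered 0 without anastrozole a, 1 without anastrozole b, 13 without anastrozole c, and 0 without vehicle a or vehicle c. MCM2 was called in every fit with a library left out, and HMMR, NUSAP1 and MCM3 each lost their call in 4 and TPX2 in 5. Replication calls numbered 3, 1, 1 and 1 without anastrozole a, anastrozole b, vehicle a and vehicle c. Of 31 G1 regulators, 1 was lowered, the factor MYBL2 (155 ± 6.67 to 136 ± 1.39 CPM), which was not called with the GC offset or without anastrozole b or vehicle c. Under that offset 1 other G1 regulator was raised and 0 lowered.

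Genes of protein folding in the endoplasmic reticulum were raised in part. Of 39 chaperones, folding enzymes and degradation genes, 6 were raised and 1 lowered (median 0.05). HSP90B1 (chr12:104323885-104347709), the reticulum's HSP90, had 1929, 1958 and 1884 CPM with vehicle and 2331, 2166 and 2123 CPM with anastrozole (fold change 1.15, adjusted p = 0.00011). HSPA5 (BiP) went from 2136, 2136 and 2155 to 2439, 2381 and 2313 CPM (adjusted p = 0.0072) and the cargo receptor LMAN1 from 229 ± 10.8 to 265 ± 10.8 CPM. The other raised members were NUCB2, DNAJB9 and the lectin chaperone CANX, and the lowered one was ERP29 (167 ± 8.68 to 148 ± 2.19 CPM). Under the GC offset 6 were raised and 1 lowered (median 0.03). Without that offset, 2 were raised without anastrozole a, anastrozole b or vehicle c and 3 without vehicle a. HSPA5, DNAJB9 and ERP29 each lost their call in 4 of the 6 fits with a library left out and NUCB2 in 3. HSP90B1 and LMAN1 kept theirs in each, and DNAJB9 was not called with the GC offset.

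In the 26 targets of ATF4, the factor of amino acid and folding stress, 3 were raised (DDIT3, CEBPG and MTHFD2) and 3 lowered (PYCR1, SLC1A5 and SLC7A5). DDIT3 (CHOP) went from 44.9, 48.7 and 49.5 to 62.2, 59.8 and 57.2 CPM (adjusted p = 0.00014), and the proline enzyme PYCR1 from 159, 149 and 153 to 125, 131 and 134 CPM (adjusted p = 0.00029). None of the 3 lowered genes was called with the GC offset, whereas 3 members were raised with it, among them DDIT3. The lowered count was 1 without anastrozole a or vehicle c. The calls of MTHFD2 and CEBPG were lost in 5 and 4 of the 6 fits with a library left out. Of 36 cytosolic chaperones 3 were lowered, among them HSPA8 (2149 ± 22.1 to 1940.5 ± 88.4 CPM, adjusted p = 0.0094), whose call was lost without anastrozole b, vehicle a or vehicle c. Under the GC offset 4 were lowered, 1 of them in common, and the count was 0 without vehicle a and 1 without vehicle c.

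Autophagy genes had 6 of 28 members raised and 0 lowered (median 0.03). RB1CC1 (chr8:53535018-53658403), a subunit of the initiating kinase complex, had 151, 159 and 161 CPM with vehicle and 194, 181 and 186 CPM with anastrozole (fold change 1.20, adjusted p = 3.3e-05). The cargo receptors TAX1BP1, NBR1 and CALCOCO2 were raised to fold changes of 1.13, 1.13 and 1.11, and ATG2B and ATG14 also passed. With the GC offset 5 were raised (median 0.01), and the count was 2 without anastrozole a and 1 without anastrozole b, vehicle a or vehicle c. Of 43 lysosomal genes 1 was lowered, the proton pump subunit ATP6V0C (109, 98.8 and 111 against 75.01, 94.8 and 105 CPM). Its groups overlapped, and the call was lost with the GC offset, under which 1 other lysosomal gene was lowered, with library size scaling alone, and without anastrozole a, vehicle a or vehicle c.

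Of 76 nuclear genes of oxidative phosphorylation, 7 were lowered and 0 raised, and 65 were below 0, with a median log2 difference of -0.06. NDUFB11 (chrX:47001470-47004865), a subunit of complex I, had 117, 108 and 108 CPM with vehicle and 89.7, 91.2 and 92.7 CPM with anastrozole (adjusted p = 6.1e-05). NDUFB2, another complex I subunit, went from 42.5, 35.0 and 37.029 to 31.2, 28.5 and 26.4 CPM (adjusted p = 0.0001), with exons that overlap an antisense gene. The list's median relative to the vehicle mean was 0.06, -0.05 and -0.02 in vehicle a, b and c and -0.01, -0.04 and -0.16 in anastrozole a, b and c, so anastrozole c alone lay outside the vehicle range. With the GC offset 8 were lowered, 5 of them in common, and the count was 2 without vehicle a and 3 without vehicle c, while 2 were raised without anastrozole c.

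Among genes of translation, 5 of 79 ribosomal protein genes were lowered, among them RPL8 (1171 ± 41.9 to 1047 ± 59.0 CPM), and 4 of 48 initiation and elongation factors were raised and 3 lowered. EIF4A2 went from 1211, 1179 and 1166 to 1374, 1338 and 1248 CPM (adjusted p = 0.007) and EEF1D from 298, 289 and 302 to 248, 269 and 274 CPM (adjusted p = 0.0084). Ribosomal protein genes have many near-identical pseudogene copies, so their counts are uncertain. With the GC offset 2 ribosomal protein genes were lowered, and 3 factors were raised and 0 lowered. The ribosomal list's median was 0.08, 0.03 and -0.16 in anastrozole a, b and c, so the treated replicates did not move alike, and the count lowered was 1 without anastrozole a, 0 without vehicle a and 1 without vehicle c, while 14 were raised without anastrozole c. EIF4A2 and EEF1D lost their calls in 3 and 4 of the 6 fits with a library left out. Of 34 proteasome subunits 1 was lowered (PSMD2) and 3 with the GC offset, and of 22 cytosolic aminoacyl-tRNA synthetases 1 (VARS), calls lost in 5 and 4 of the 6 fits with a library left out.

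Splicing factors and hnRNP genes had 8 of 71 members lowered and 4 raised. HNRNPM, an hnRNP that acts in splicing, went from 208 ± 2.82 to 177 ± 9.50 CPM (adjusted p = 0.00017). LUC7L3 and the splicing kinase CLK1 were raised, LUC7L3 from 665, 687 and 686 to 811, 793 and 749 CPM (adjusted p = 0.00015), and CLK1 was not called with the GC offset. After the GC offset 16 were lowered and 2 raised. The lowered count was 5 without anastrozole b, vehicle a or vehicle c, and the raised count 1 without anastrozole a, anastrozole b or vehicle c, 2 without vehicle a and 7 without anastrozole c.

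Among 35 luminal keratin and junction genes 6 were lowered and 0 raised, including the desmosome genes PKP3 (93.2 ± 2.89 to 78.3 ± 6.95 CPM) and JUP (821 ± 21.8 to 739 ± 56.3 CPM), which were not called with the GC offset, and PTPN14 (139.7 ± 8.79 to 119 ± 4.46 CPM), which was. With the GC offset 4 were lowered, 3 of them in common, namely PTPN14, PVRL1 and PVRL2. PVRL1 and PVRL2 had no known exon GC, so the offset could not test their calls. The count was 1 without anastrozole a, anastrozole b or vehicle c, and 13 without anastrozole c. Of 46 actin and adhesion genes 3 were lowered (DBNL, PFN1 and CFL1), and with the GC offset 1 was. That count was 1 without anastrozole b or vehicle c and 10 without anastrozole c, and PFN1 and CFL1 each lost their call in 3 of the 6 fits with a library left out. Of 31 immediate early genes 2 were raised, the growth-inhibitory factor KLF10 (57.4 ± 2.07 to 70.8 ± 2.49 CPM, adjusted p = 0.0002) and the kinase PLK2 (761 ± 9.32 to 869 ± 32.9 CPM, adjusted p = 0.0005, not called without vehicle c), while FOS had 2.51, 2.36 and 2.10 and 2.09, 3.54 and 2.53 CPM and was not called. After the GC offset 3 immediate early genes were raised.

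Set directly against E2, anastrozole left 280 genes different (1.33%), 131 higher (0.62%) and 149 lower (0.705%) with anastrozole, and 56 of these were among the 776. The 2 comparisons share the 3 anastrozole samples, so a gene can enter both through them, and the 56 is only a description. Both treatments were measured against the same vehicle samples, so the direct test is given and a match of their 2 responses was not tested. As description, list medians of E2 against vehicle were -0.21 for interferon effectors, 0.24 for HIF targets and -0.04 for cholesterol enzymes. They were 0.13 for the arrestin-domain list and 0.14 for estrogen-induced targets. Those of anastrozole were -0.30, 0.17, -0.15, 0.14 and -0.07, in the same order. Of the 60 interferon effectors, 10 were lower with anastrozole than with E2 and 0 higher. IFI6 had 116 ± 3.95 CPM with E2 and 85.8 ± 8.65 CPM with anastrozole (log2 difference of anastrozole from E2 -0.43 ± 0.05, adjusted p = 8.8e-16), and IFI27 had 28.0 ± 1.32 CPM with E2 and 19.6 ± 2.10 CPM with anastrozole (adjusted p = 2.2e-06). OAS2 had 30.5 ± 2.27 CPM with E2 and 29.5 ± 2.67 CPM with anastrozole, a difference of -0.04 ± 0.08 on the log2 scale (adjusted p = 0.94). The list's count was 3 without anastrozole b, 6 without E2 a or c and 4 without E2 b.

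Of the 38 HIF target genes, 1 was higher and 5 lower with anastrozole than with E2. VEGFA had 245 ± 12.8 CPM with anastrozole and 246 ± 1.05 CPM with E2, a log2 difference of -0.00 ± 0.04 that was not called (adjusted p = 1). The 5 lower ones were KDM4B, PLOD2, ERO1L, STC2 and PFKFB3, and the count was 1 or 2 without anastrozole b or any 1 of the E2 libraries. CITED2, a HIF target that in turn restrains HIF, was the higher one (144 ± 8.22 against 116 ± 2.80 CPM, adjusted p = 1.9e-09). Of the 25 arrestin-domain, thioredoxin and FOXO-linked genes, 2 were higher with anastrozole and 0 lower, TXNIP (509 ± 29.8 against 463 ± 8.18 CPM, adjusted p = 0.012) and FBXO32, and the count was 1 with the replicate block, under either other filter, by the exact test, DESeq2 or limma-voom, and without anastrozole b or any 1 of the E2 libraries.

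Of the 22 cholesterol enzymes, 7 were lower with anastrozole than with E2 and 1 higher. FDPS had 342 ± 20.2 CPM with anastrozole and 404 ± 5.02 CPM with E2 (adjusted p = 1.1e-06), and SQLE 229.5 ± 3.48 and 264 ± 6.21 CPM (adjusted p = 0.00029). Of the 35 estrogen-induced targets, 13 were lower with anastrozole and 0 higher. GREB1 had 473 ± 8.29 against 569.7 ± 8.94 CPM (log2 difference -0.26 ± 0.04, adjusted p = 2.1e-09) and PGR 2003 ± 45.1 against 2293 ± 34.9 CPM (adjusted p = 7.3e-06). That count was 9 without anastrozole b, 10 without E2 a, 6 without E2 b and 9 without E2 c. The total of 280 was 107 by DESeq2's Wald test and 70 by limma-voom, and 134, 177, 107 and 124 without anastrozole b, E2 a, E2 b and E2 c. With the GC offset the total was 479. Members lower with anastrozole than with E2 then numbered 11 interferon effectors, 8 HIF targets, 11 cholesterol enzymes and 15 estrogen-induced targets. Members higher were 2 HIF targets, 1 cholesterol enzyme and 3 of the arrestin-domain list.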

How the data were processed

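RNA-seq was done on T47D cells treated with vehicle or anastrozole (n = 3 each), with E2 samples (n = 3) for the direct comparison. The extraction used TRIzol, and the library kit was NuGEN Encore; the labels name polyA RNA while that kit was described for total RNA. The authors deposited raw read counts per gene symbol. The submitters' processing notes name TopHat2 2.0.14, Bowtie2 2.2.6, HTSeq and build hg19; the annotation, and whether counting used strand, are not given in the sources used here, so reads of overlapping or near-identical genes are uncertain.

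Counts were analysed in R 4.3.3 with edgeR 4.0.16: TMM scaling, quasi-likelihood fits of each pair of groups, Benjamini-Hochberg adjustment over all genes tested and a threshold of 0.05. Reads given to no gene (59.1% to 59.9% of the table's total in the 6 samples held no feature) were left out. CPM values use TMM-scaled library sizes. Coordinates and exon GC come from GENCODE 44 on GRCh37 and promoters from RefSeq on GRCh38.p14. The GC offset is a per-sample trend of log counts on exon GC.

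Named genes were the 12 largest rises and falls of called, non-overlapping genes averaging at least 3 log2 CPM, up to 6 called members a list, members needed to account for a list, and CYP19A1, ESR1, PGR, GREB1, TFF1, HIF1A, SREBF1, SREBF2 and cell markers. Some genes of this rule are not reported here. The members and lists were chosen with earlier results of these data known. Alternatives used DESeq2 1.42.0, limma 3.58.1, other scalings and filters, thinning, a replicate block and each library left out. On simulated counts for 20236 genes the fit found 72% of genes changed 1.25-fold and 96% of those changed 1.5-fold, with 5.64% false calls. Those counts were drawn gene by gene with no GC trend, and only genes above a set level were changed. The share of false calls in the real libraries is therefore not known from them. The depth of 9914253 to 13930525 reads sets the precision; the limit of 3 reads covers counting error only.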

Additional observations from a re-analysis of the deposited data

How the results depend on the processing

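The 776 changed genes (296 raised, 480 lowered) became 238 (100 and 138) under DESeq2's Wald test, 372 (174 and 198) at an average of at least 3 log2 CPM, 416 (176 and 240) under edgeR's exact test, 419 (186 and 233) with filterByExpr, 15 (6 and 9) with limma-voom and 1229 (483 and 746) with all 12 samples in 1 fit. With any one library left out they ran from 191 to 1651 (76 to 639 raised, 115 to 1012 lowered). The 280 genes different from E2 became 107, 152, 178, 160 and 70 in the first 5 of these and ran from 107 to 414 with a library left out. DESeq2 size factors gave 793, 301, 492 and 282, library size alone 798, 327, 471 and 299, and thinning to the smallest total 590, 231, 359 and 239 changed, raised, lowered and E2-different genes. The GC offset gave 646 (325 and 321) and 479, and no gene was called in opposite directions with and without it. The cause of these changes was not tested.

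The replicate block gave 823 (294 and 529) and 180, and the GC offset with replicate block 709 (358 and 351) and 411. Deviations of same-lettered anastrozole and vehicle samples correlated at -0.11, -0.04 and 0.18 over genes, and those of same-lettered anastrozole and E2 samples at 0.23, 0.18 and -0.13. Since neither set is above 0.1 throughout, the letters were taken only as shared labels. Anastrozole a and b correlated best with the E2 sample of their own letter and c did not; against vehicle only c did. No named gene called without an offset changed sign in any other fit. IGFBP4, not called and at a log2 difference of -0.00, was raised by 0.12 with the GC offset, alone or with the replicate block. The median log2 difference of genes averaging at least 3 log2 CPM was -0.0032, and between -0.0036 and -0.00050 under other scalings.

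Depth limits low genes: 54 called genes averaged under 3 log2 CPM. Every contrast rests on 3 samples a group, treatment time differs between sources, and the GC trend of anastrozole a and b cannot be told apart from treatment.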

Other observations

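Zinc finger genes with ZNF numbers, most of which encode DNA-binding repressors, had few calls. Of 495 tested, 9 were raised (1.82%, against 1.4% of all genes) and 3 lowered (0.606%, against 2.27%). Of the 452 averaging at least 1 log2 CPM, 304 were above 0, with a median log2 difference of 0.07 that was 0.05 with the GC offset, and the list's median exon GC was 44.1% against 48.1% over all genes. ZNF217, a transcription factor gene amplified in many breast cancers, had 274, 287 and 269 CPM with vehicle and 324, 328 and 314 CPM with anastrozole (fold change 1.16, adjusted p = 0.00024), and ZNF12 81.2, 93.1 and 90.2 and 103, 108 and 103 CPM (adjusted p = 0.001). The groups did not overlap in either gene. With the GC offset 8 were raised and 1 lowered. The raised count was 5 without anastrozole a or vehicle a, 4 without anastrozole b or vehicle c, and 24 without anastrozole c. ZNF genes share repeated sequence, so some of their reads may belong to relatives.

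Among 24 nuclear and snoRNA-host long noncoding RNAs, 2 were raised, MALAT1 (11526, 10736 and 10705 against 12250.1, 13411 and 11415 CPM, adjusted p = 0.00052) and ZFAS1 (163, 142 and 152 against 189.5, 177 and 154 CPM, adjusted p = 0.008). The groups overlapped in both, and the call of MALAT1 was lost with the GC offset and without anastrozole b or vehicle c. ZFAS1 lost its call without anastrozole a or b or vehicle b or c. Of 18 BCL2 family genes, the survival gene MCL1 was raised (301 ± 1.46 to 334 ± 2.13 CPM) and BCL2L1 lowered (233 ± 4.59 to 209 ± 14.1 CPM), with the call of BCL2L1 lost under the GC offset. MCL1 lost its call in 5 and BCL2L1 in 4 of the 6 fits with a library left out.

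IL32, a cytokine gene below the level set for naming and chosen after its values were seen, had 3.3972, 3.73 and 4.12 CPM with vehicle and 9.52, 9.40 and 10.0 CPM with anastrozole (fold change 2.57, adjusted p = 2.6e-14), and 8.92 ± 0.545 CPM with E2 (n = 3).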
